A study of Mus musculus with 12 samples.

Results

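The genes described here are the nuclear-encoded subunits of oxidative phosphorylation, measured as RNA in mouse regulatory T (Treg) cells. Members were chosen by symbol: the Nduf genes of complex I, Sdha to Sdhd of complex II, the Uqcr genes and Cyc1 of complex III, Cycs (cytochrome c), the Cox4 to Cox8 genes of complex IV, and the Atp5 genes of complex V, the ATP synthase. Rows whose symbol marks a pseudogene (-ps) were dropped, which took out 10 of 98 matching rows. The remaining 88 members stood among 24502 genes in the table. They comprised 40 genes of complex I, 4 of complex II, 9 of complex III, Cycs, 17 of complex IV and 17 of complex V.

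The cells came from WT mice and from Foxp3CreGpx4fl/fl mice, in which Cre recombinase driven by the Treg gene Foxp3 removes a loxP-flanked Gpx4, the enzyme that reduces lipid hydroperoxides. All mice were 11 weeks old. Treg cells were left unstimulated or were stimulated on plates coated with anti-CD3 and anti-CD28 antibodies (5 µg/ml) for 4 h, giving 4 groups of 3 libraries: unstimulated WT, unstimulated Gpx4-deficient, stimulated WT and stimulated Gpx4-deficient. The labels do not say whether a library is 1 mouse or a pool, nor whether the WT mice carried the Cre, so p-values measure the spread between these libraries. No time in culture is given for the unstimulated cells, and stimulation and culture cannot be told apart.

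Oxidative phosphorylation passes electrons from NADH (through complex I) and succinate (through complex II) by way of complex III and cytochrome c to oxygen at complex IV. Complexes I, III and IV pump protons across the inner mitochondrial membrane, and complex V uses that gradient to make ATP. Complex II is encoded wholly in the nucleus, whereas the other complexes combine nuclear subunits with mitochondrially encoded ones. Treg cells are known to depend on mitochondrial respiration for their suppressive function.

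Library totals ran from 24629230 to 31879267 expected counts, and 1 CPM (counts scaled to the TMM-adjusted library size) stood for 24.6 counts in the smallest library. Gpx4 lay between 142 and 172 CPM in unstimulated WT libraries and between 69.2 and 107 CPM in stimulated WT libraries. In Gpx4-deficient libraries it lay between 4.96 and 12.3 CPM unstimulated and between 3.34 and 9.23 CPM stimulated, in the direction of every genotype label. All 6 markers listed for Treg cells were at 1 CPM or more in all 12 libraries, with sums of 2528 to 6267 CPM. They were Foxp3, Il2ra, Ikzf2 and Ctla4, with Cd4 and Cd3e, which other T cells share. Summed markers of other cells were lower, at most 170.6 CPM for neutrophils, 60.8 CPM for B cells, 244.9 CPM for monocytes and macrophages, 136 CPM for CD8 and NK cells and 62.9 CPM for erythroid cells. Foxp3 alone lay between 20.6 and 75.9 CPM, and sums over unlike sets of genes do not measure purity.

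Of the 88 members, 80 passed the filter on low counts and were tested among 14827 genes. The 8 that did not pass were Cox4i2, Cox6a2, Cox7a1, Cox8b and Ndufa4l2, which are isoforms known from other tissues, and Cox6c2, Ndufa11b and Ndufs6b, which the annotation lists as processed pseudogenes. The processed pseudogene Ndufb4c passed the filter but nearly copies Ndufb4, so the division of reads between these genes is uncertain. The subunits used in Treg cells were therefore almost wholly the widely expressed isoforms. Cox4i2 had 20 counts over all 12 libraries against 69626 for Cox4i1. Cox6a2 had 11 counts against 44735 for Cox6a1, and Cox8b had 0 counts against 41084 for Cox8a. Cox6b2 had 269 counts against 40396 for Cox6b1, and Cox7a1 had 38 counts. Ndufa4l2 was above 0 in 1 library, where it reached 1.40 CPM, against 22570 counts over all libraries for Ndufa4, which is grouped here by its symbol although its protein is now assigned to complex IV.

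Levels differed widely within each complex. Per kilobase of the gene's merged exons, the mean over all 12 libraries was highest for Atp5b, the catalytic beta subunit of the ATP synthase, at 342.9 CPM per kb, and for Atp5a1, its alpha subunit, at 286.8 CPM per kb. Atp5l, a small membrane subunit, was lowest in complex V at 8.21 CPM per kb. In complex IV the highest were Cox8a at 206.6 CPM per kb and Cox6a1 at 199 CPM per kb, both small membrane subunits. In complex III they were Uqcrc1, a core subunit, at 115.4 CPM per kb and Uqcrb at 105.7 CPM per kb, and Uqcrq was lowest at 45.7 CPM per kb. Complex I was led by Ndufa1 at 148.3 CPM per kb and Ndufa2 at 87.4 CPM per kb, and ended with Ndufb2 at 4.45 CPM per kb. In complex II the flavoprotein Sdha had 98.2 CPM per kb, the iron-sulfur subunit Sdhb 81.7, and the membrane anchors Sdhd 91.7 and Sdhc 17.3. The order rests on the gene length used: by the longest transcript Sdhb (148.4 CPM per kb) exceeded Sdha (139.7 CPM per kb), and Cox4i1 came first in complex IV at 285.1 CPM per kb.

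**Figure D1:**
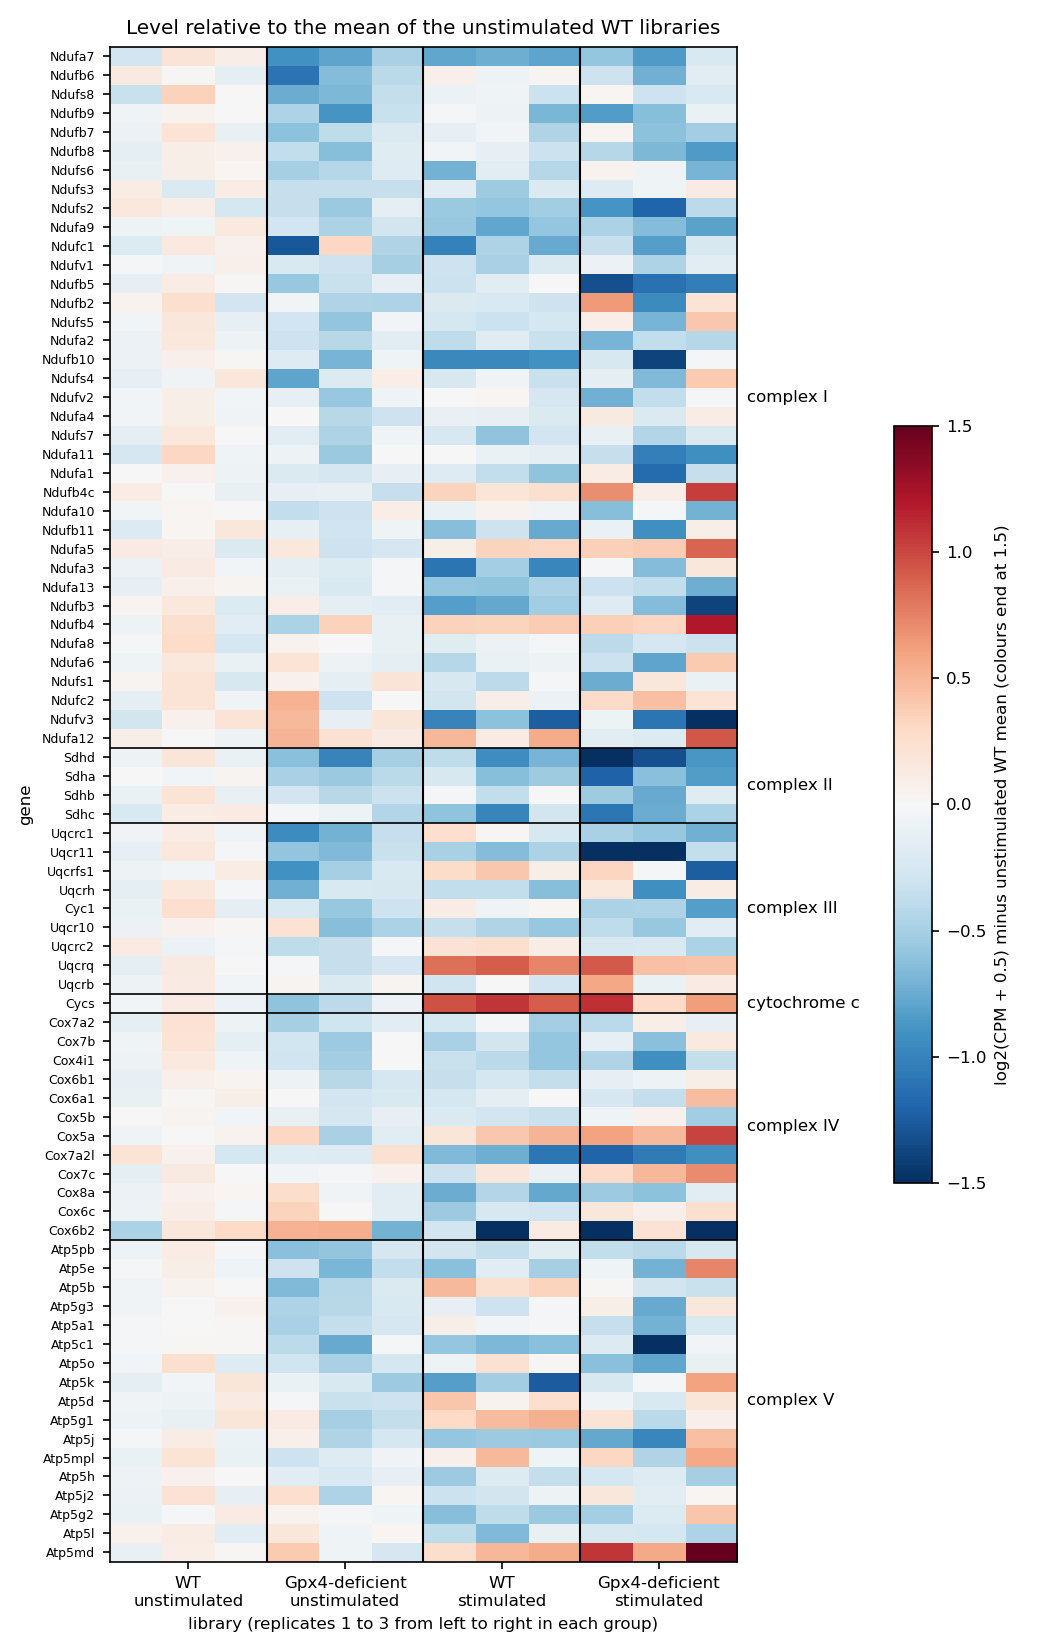
Level of the 80 tested members (rows, ordered by complex) in the 12 libraries (columns), as log2(CPM + 0.5) minus the mean of the 3 unstimulated WT libraries; blue is lower and red is higher. Most rows were blue in the unstimulated Gpx4-deficient and stimulated WT libraries, Cycs and Uqcrq were red in all 6 stimulated libraries, and the stimulated Gpx4-deficient libraries were the least alike.

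Stimulation of WT cells went with higher Cycs and Uqcrq and with lower values for most other members. In 61 of 80 tested members the log2 fold change was below 0, and the median over members was -0.27, against -0.03 over all genes tested. A gene is called here when its adjusted p was under 0.05 in edgeR's quasi-likelihood test, with Benjamini-Hochberg adjustment over all 14827 genes. By that rule 2 members rose and 3 fell with stimulation in WT cells. The background was 6.12% of all genes called higher and 5.41% called lower, so the members' 2.5% and 3.75% were below it.

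Cycs encodes cytochrome c, the soluble carrier between complexes III and IV, which also triggers caspase activation when it leaves mitochondria. It measured 109, 122 and 106 CPM in the unstimulated WT libraries and 218, 236 and 212 CPM in the stimulated ones. All 3 stimulated libraries lay above all unstimulated ones, a log2 fold change of 0.98 ± 0.20 (SE, n = 3 per group; edgeR adjusted p = 0.0073). Uqcrq, a small subunit of complex III, measured 58.4, 71.1 and 64.6 CPM unstimulated and 115, 122 and 108 CPM stimulated. These groups did not overlap either, with a log2 fold change of 0.83 ± 0.19 (SE; edgeR adjusted p = 0.0137).

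Among the members that fell in WT cells was Cox7a2l, known as an assembly factor that joins complex III and complex IV into supercomplexes. Its values were 137, 125 and 99.1 CPM unstimulated and 75.1, 71.4 and 55.8 CPM stimulated, without overlap, a log2 fold change of -0.83 ± 0.20 (SE; edgeR adjusted p = 0.0177). Ndufa9, a supernumerary subunit of the peripheral arm of complex I, measured 155, 156 and 182 CPM unstimulated and 110, 95.1 and 109 CPM stimulated. Again the groups were separate (log2 fold change -0.65 ± 0.15, SE; edgeR adjusted p = 0.0134). Cox8a, a small subunit of complex IV, went from 142, 157 and 153 CPM to 89.9, 110 and 88.2 CPM, with no overlap (log2 fold change -0.65 ± 0.18, SE; edgeR adjusted p = 0.0326). The call of Cycs was kept when any 1 of the 6 libraries was left out. Those of Uqcrq (without unstimulated replicates 1 or 3 or stimulated replicate 2), Cox7a2l (without unstimulated replicates 1 or 2 or stimulated replicate 3) and Ndufa9 (without unstimulated replicate 3 or stimulated replicate 2) were not, with adjusted p-values of at most 0.0806. That of Cox8a was kept only without stimulated replicate 2, and its adjusted p was otherwise at most 0.141.

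**Figure D2:**
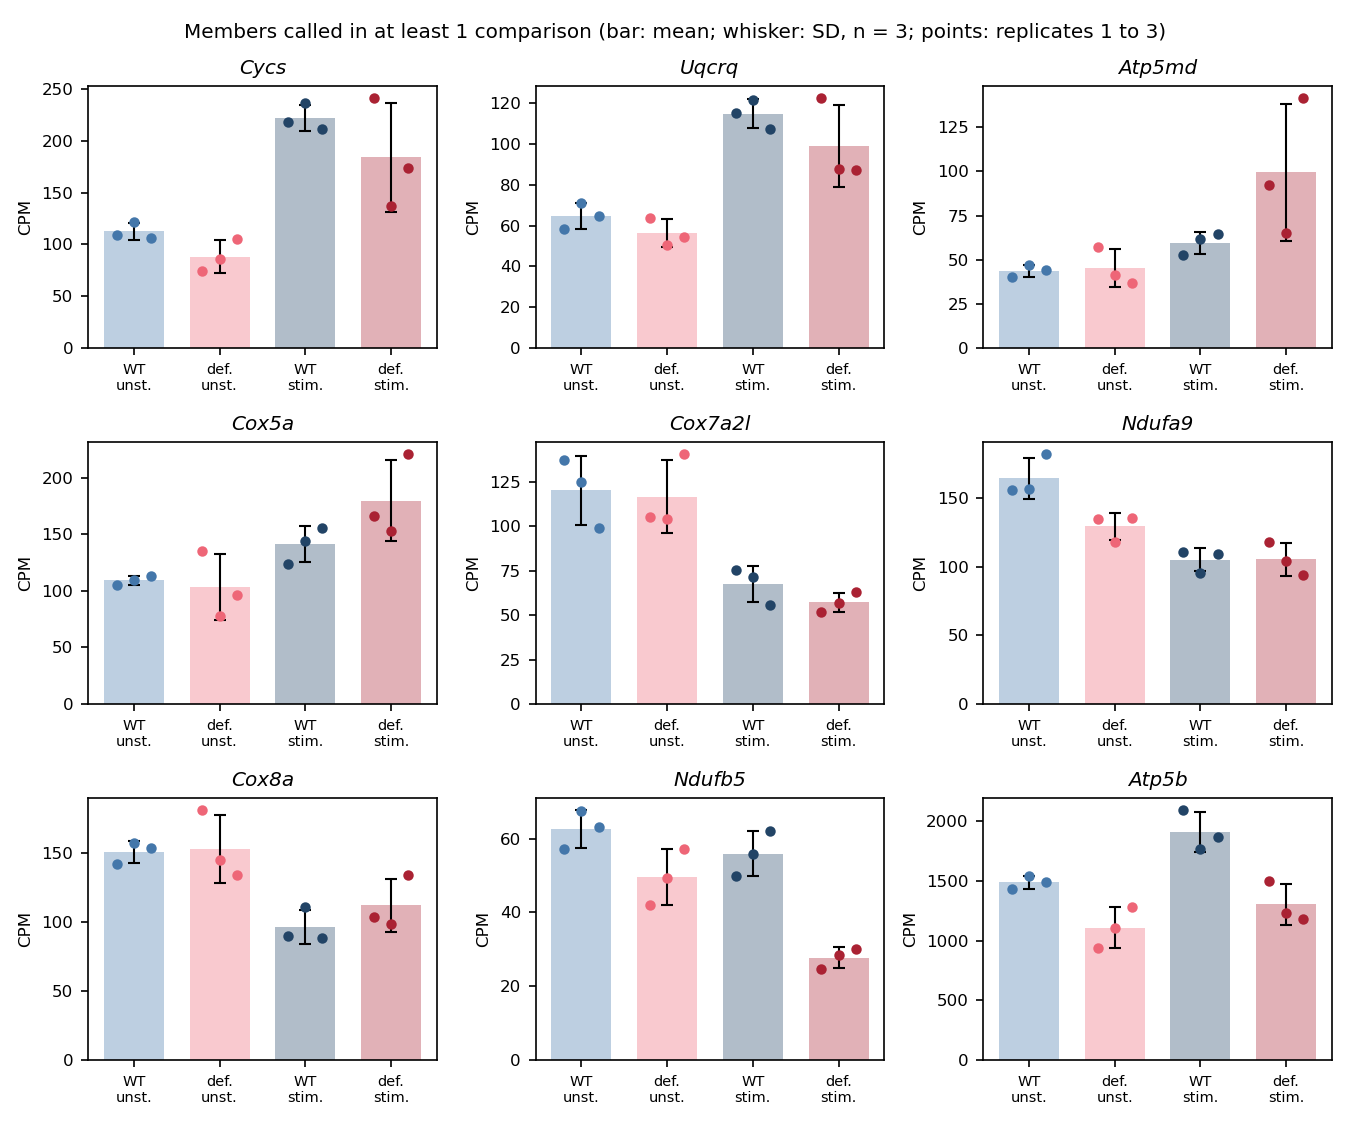
Level in CPM of the 9 members called in at least 1 comparison, by group (WT unst., unstimulated WT; def. unst., unstimulated Gpx4-deficient; WT stim. and def. stim., the stimulated groups); points are libraries, bars are means and whiskers are SD (n = 3). Cycs and Uqcrq were higher and Cox7a2l lower in every stimulated library than in any unstimulated library of the same genotype, and Ndufb5 was lowest in the stimulated Gpx4-deficient libraries.

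With the called genes included, 37 members were lower in all 3 stimulated WT libraries than in any unstimulated one (46.2% of tested members, against 22.1% of all genes) and 9 were higher in all 3 (11.2%, against 19.8% of all genes). The 37 comprised 17 genes of complex I, 3 of complex II, 3 of complex III, 7 of complex IV and 7 of complex V. By complex, 32 of 37 members of complex I, 4 of 4 of complex II, 11 of 12 of complex IV and 10 of 17 of complex V had log2 fold changes below 0. Complex III differed by role: its 4 core and redox subunits (Uqcrc1, Uqcrc2, Uqcrfs1 and Cyc1) had values above 0, with a median of 0.11, whereas 4 of its 5 small subunits had values below 0. Atp5b also had a value above 0 in this comparison (0.36, SE 0.12), which did not pass the test (edgeR adjusted p = 0.092). In bulk RNA, fewer cells of a type and less RNA per cell cannot be told apart. The summed markers of other cells also moved with stimulation of WT cells: those of monocytes and macrophages were at 134 to 245 CPM unstimulated and 25.8 to 63.2 CPM stimulated, and those of erythroid cells at 44.0 to 62.9 and 8.53 to 22.9 CPM. B cell markers were at 40.2 to 51.9 and 13.9 to 24.0 CPM, CD8 and NK markers at 103 to 136 and 45.5 to 52.9 CPM, and neutrophil markers, which overlapped, at 47.2 to 170.6 and 21.4 to 76.2 CPM. Their part in the members' values was not tested.

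In Gpx4-deficient cells stimulation raised 4 members and lowered 2. Cycs measured 73.9, 85.5 and 105 CPM unstimulated and 241, 137 and 174 CPM stimulated (log2 fold change 1.06 ± 0.20, SE; edgeR adjusted p = 0.0042). Every stimulated library was above every unstimulated one, though the stimulated libraries spread more widely than those of WT. Uqcrq measured 63.8, 50.6 and 54.3 CPM, then 122, 87.8 and 87.2 CPM, again apart (0.82 ± 0.19, SE; edgeR adjusted p = 0.0125). Atp5md, a small membrane subunit of the ATP synthase that is also known as DAPIT, measured 57.4, 41.5 and 36.6 CPM unstimulated and 92.3, 65.0 and 141 CPM stimulated. Its log2 fold change was 1.14 ± 0.29 (SE; edgeR adjusted p = 0.019), and without stimulated replicate 3, the highest library, the adjusted p was 0.0577. Cox5a, a matrix-side subunit of complex IV, measured 136, 77.8 and 96.9 CPM and then 166, 153 and 221 CPM (0.80 ± 0.21, SE; edgeR adjusted p = 0.0247), with an adjusted p of 0.0754 without that replicate. Neither gene was called without unstimulated replicate 2 (adjusted p = 0.0653 for Atp5md and 0.0893 for Cox5a) or replicate 3 (0.074 and 0.0854).

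Cox7a2l fell in Gpx4-deficient cells as well, from 105, 104 and 140 CPM to 51.7, 56.9 and 62.8 CPM, without overlap (log2 fold change -1.03 ± 0.20, SE; edgeR adjusted p = 0.00464). Ndufb5, a supernumerary membrane-arm subunit of complex I, measured 42, 49.3 and 57.2 CPM unstimulated and 24.7, 28.5 and 30.1 CPM stimulated, likewise apart (-0.83 ± 0.22, SE; edgeR adjusted p = 0.0225). Its call was lost without unstimulated replicates 2 (adjusted p = 0.0704) or 3 (0.103) or stimulated replicate 1 (0.0596). In a fit of the 2 Gpx4-deficient groups alone only Cox7a2l was called (adjusted p = 0.0442), and Cycs had an adjusted p of 0.0571. The called shares, 5% higher and 2.5% lower, were below the 7.45% and 7.83% of all genes. Log2 fold changes were below 0 for 40 of 80 members, and the median was -0.0002, against -0.02 over all genes. Groups did not overlap for 9 members in the higher direction (11.2%, against 12.9% of all genes) and for 8 in the lower direction (10.0%, against 16.9%). Leaving out a library can only keep or raise such counts. Without stimulated replicate 3 the lower count was 18 (22.5%, against 22.5% of all genes) and the higher count 12 (15.0%, against 18.6%). Without unstimulated replicate 1 the higher count was 14 (17.5%, against 15.8%) and the lower count 8 (10.0%, against 22.8%). Complex II again had values below 0 for 4 of 4 members, from -0.62 for Sdhd to -0.14 for Sdhb, and none of the 4 passed the test. Markers of monocytes and macrophages summed to 115 to 154 CPM unstimulated and 65.2 to 89.9 CPM stimulated. Lyz2 (means of 82.2 and 38.2 CPM) and Csf1r (32.7 and 7.22 CPM) carried that difference. Cd14 (0.654 and 13.9 CPM), Cd68 (7.97 and 9.55 CPM) and Adgre1 (5.67 and 6.22 CPM) went the other way. Those of CD8 and NK cells summed to 61.9 to 106 and 17.0 to 39.9 CPM. That difference lay mostly in Nkg7 (64.4 and 10.9 CPM), while Klrb1c (5.12 and 5.78 CPM) went the other way. The part of these cells in the members' values was not tested.

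**Figure D3:**
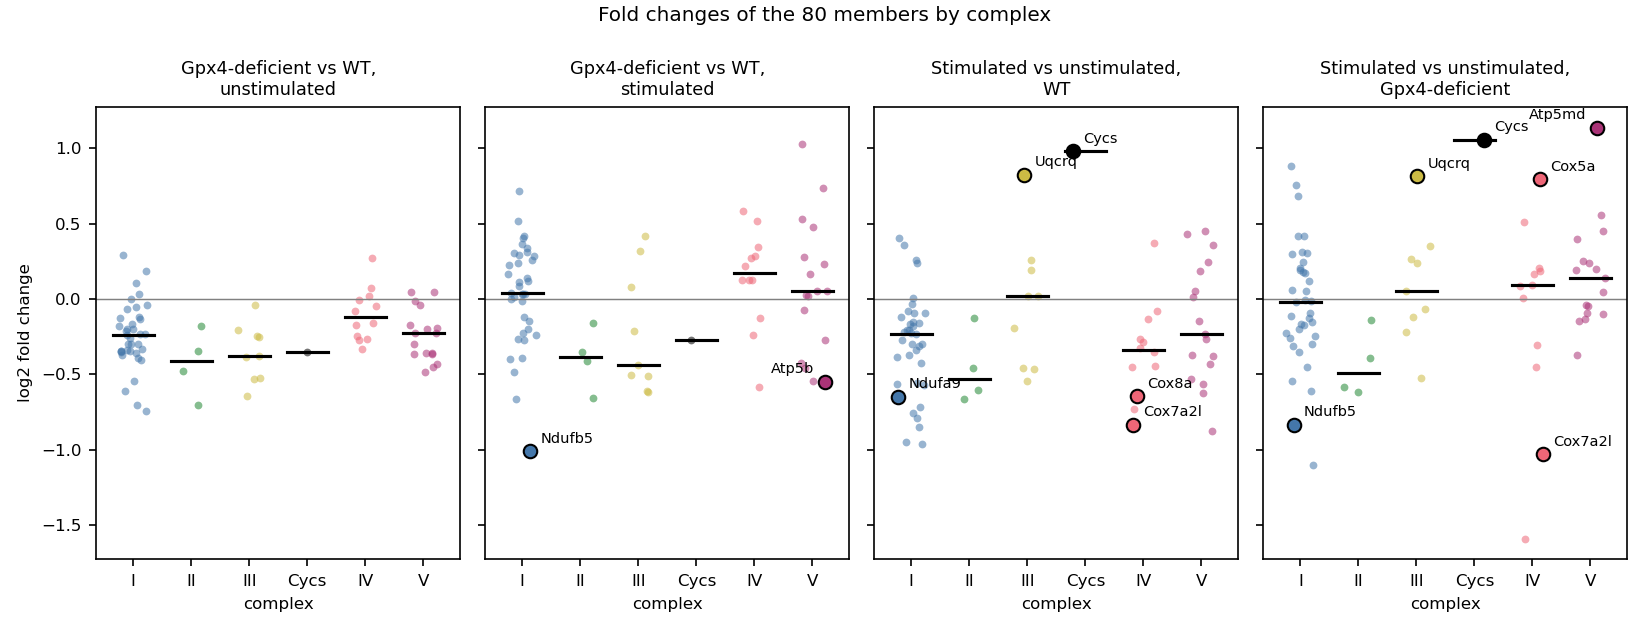
Log2 fold change (vertical axis) of the 80 tested members by complex (horizontal axis; Cycs stands alone) in 4 comparisons; each point is 1 gene, horizontal bars are medians, and labelled points with a black edge passed the test. Points lay mostly below 0 in the unstimulated genotype comparison and in stimulated WT cells, and were spread about 0 in the comparisons with the stimulated Gpx4-deficient libraries.

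The starts of the called genes were compared for letters bound by regulators known to act on nuclear respiratory genes. The windows ran from 250 bases before to 50 bases after the start in RefSeq (GRCm38.p6), and 68 of the 88 members had an entry. On either strand, 27 of the 68 (39.7%) held the core of the NRF1 site, CGCANGCG, against 9.22% of the 27025 genes in that table. The ETS core bound by GABP, CCGGAAG, was in 17 members (25%, against 9.93% of genes), and the YY1 core, AAGATGGC, in 10 (14.7%, against 3.19%). At least 1 of the 3 was in 44 members (64.7%, against 19.5%). Median GC content was 57.7% in the members' windows and 52.7% in all, and NRF1 and ETS cores are rich in G and C. In stimulated against unstimulated WT cells the median log2 fold change was -0.30 with an NRF1 core (27 tested members) and -0.27 without (39), -0.37 with an ETS core (17) and -0.27 without (49), and -0.40 with a YY1 core (10) and -0.27 without (56). In stimulated against unstimulated Gpx4-deficient cells the medians were -0.04 and 0.06 for the NRF1 core, 0.17 and -0.01 for the ETS core, and -0.02 and 0.06 for the YY1 core. For genotype in unstimulated cells they were -0.25 and -0.25, -0.34 and -0.23, and -0.30 and -0.24 in the same order. None of these differences was tested.

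The stretches just before the start of 6 of the 9 called genes are shown to set those that rose beside those that fell; capitals mark the NRF1 core. Uqcrq had no entry, and for Ndufb5 and Atp5b an annotated exon lies too close to the start. Each is given 5′ to 3′ on the gene's strand, ends at the base before the RefSeq start, and stops short of any annotated exon. Of the genes that rose, Cycs (chr6:50566570-50566642, minus strand) holds the NRF1 core 61 to 54 bases before its start, Atp5md (chr19:47090648-47090767, minus strand) holds it 18 to 11 bases before (as its reverse complement) and again farther upstream in an annotated exon, and Cox5a (chr9:57521082-57521231, plus strand) holds none of the 3 cores.
Cycs: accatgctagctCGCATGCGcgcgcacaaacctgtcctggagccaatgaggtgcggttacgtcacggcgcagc
Atp5md: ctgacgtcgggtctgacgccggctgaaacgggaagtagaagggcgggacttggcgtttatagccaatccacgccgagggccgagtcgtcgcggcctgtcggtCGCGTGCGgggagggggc
Cox5a: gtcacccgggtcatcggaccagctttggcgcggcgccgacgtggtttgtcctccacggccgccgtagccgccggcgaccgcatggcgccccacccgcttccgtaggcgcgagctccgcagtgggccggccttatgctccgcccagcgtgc
Of the genes that fell, Cox7a2l (chr17:83514334-83514483, minus strand), Ndufa9 (chr6:126849145-126849294, minus strand) and Cox8a (chr19:7217617-7217766, minus strand) hold none of the 3 cores within the stretch shown. The whole windows of Cox5a and Cox7a2l hold none either, whereas farther along, at or past the start, those of Cox8a and Atp5md hold an ETS core and that of Ndufa9 a YY1 core.
Cox7a2l: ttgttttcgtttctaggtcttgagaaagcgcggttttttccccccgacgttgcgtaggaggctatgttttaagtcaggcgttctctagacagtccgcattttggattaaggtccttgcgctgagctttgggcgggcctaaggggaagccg
Ndufa9: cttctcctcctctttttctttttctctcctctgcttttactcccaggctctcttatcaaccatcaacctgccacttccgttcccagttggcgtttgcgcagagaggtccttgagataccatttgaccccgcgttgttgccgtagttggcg
Cox8a: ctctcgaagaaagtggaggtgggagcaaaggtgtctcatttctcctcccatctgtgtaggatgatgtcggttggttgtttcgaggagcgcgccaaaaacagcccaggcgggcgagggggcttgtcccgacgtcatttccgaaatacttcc
Stretches of this kind describe letters only and show no binding.

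Gpx4 deficiency in unstimulated cells went with slightly lower values across most members, none of which passed the test. No member was called in either direction, by edgeR's quasi-likelihood test, where 0.054% of all genes were called higher and 0.0135% lower. At an unadjusted p under 0.05, 12 members were lower (15% of tested members, against 2.84% of all genes) and 0 were higher (against 2.96%). DESeq2, used as an alternative, called 3 lower (Atp5pb, Ndufa7 and Uqcrc1), where it called 1.4% of all genes in either direction. The log2 fold change was below 0 for 70 of 80 members, with a median of -0.25, against 0.01 over all genes. All 3 Gpx4-deficient libraries lay below all 3 WT libraries for 33 members (41.2%, against 9.89% of all genes). Only Ndufa12, a supernumerary subunit of complex I, lay above in all 3 (1.25%, against 8.42% of all genes). This comparison and that of stimulated with unstimulated WT cells share the unstimulated WT libraries, of which replicate 2 was the highest for 54 members. Leaving out Gpx4-deficient replicate 1, which can only keep or raise such counts, put 45 members below all WT libraries (56.2%, against 14.2% of all genes). The share of all genes thus rose as well, from 9.89%. No other library was left out for this count.

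Uqcrc1, a core subunit of complex III, measured 552, 622 and 552 CPM in the unstimulated WT libraries and 298, 352 and 454 CPM in the Gpx4-deficient ones, apart, with a log2 fold change of -0.64 ± 0.16 (SE; edgeR adjusted p = 0.332). Sdha, the catalytic subunit of complex II and so also an enzyme of the citric acid cycle, measured 542, 526 and 559 CPM against 387, 369 and 411 CPM. That separation came to -0.48 ± 0.15 (SE; edgeR adjusted p = 0.576). Atp5pb, the b subunit of the peripheral stalk of the ATP synthase, measured 230, 263 and 238 CPM against 157, 161 and 204 CPM (-0.48 ± 0.13, SE; edgeR adjusted p = 0.425). Ndufs8, a core iron-sulfur subunit of complex I, measured 82.2, 132 and 103 CPM against 61.8, 65.2 and 81.0 CPM. Its groups also did not overlap (-0.61 ± 0.21, SE; edgeR adjusted p = 0.679). Cycs overlapped by no library either, but narrowly, at 105.98 to 122 CPM in WT and 73.9 to 105.47 CPM in Gpx4-deficient libraries (-0.35 ± 0.20, SE, edgeR adjusted p = 0.977). In complex IV the smallest p was that of Cox6b1, which faces the intermembrane space. It measured 127, 146 and 143 CPM against 131, 103 and 116 CPM, which overlapped (-0.25 ± 0.14, SE, edgeR adjusted p = 0.974).

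Complexes differed in median. The medians were -0.41 for complex II, -0.37 for complex III, -0.24 for complex I, -0.22 for complex V and -0.12 for complex IV, and 4 of 4, 9 of 9, 32 of 37, 15 of 17 and 9 of 12 members had values below 0. Within complex V the 5 F1 subunits, which form the catalytic head, had a median of -0.36, and the 5 small membrane subunits a median of -0.04. Neutrophil markers differed between the same groups, summing to 47.2 to 170.6 CPM in unstimulated WT libraries and 1.30 to 8.08 CPM in unstimulated Gpx4-deficient ones, with each of the 8 listed markers lower in its mean and none at 0 in all libraries. Erythroid markers summed to 44.0 to 62.9 and 25.6 to 39.3 CPM. The part of these cells in the members' values was not tested.

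In stimulated cells Gpx4 deficiency went with lower values for the most abundant members and higher values for many of the least abundant ones. Of the 80 members, 33 had log2 fold changes below 0 and 47 above, and the median was 0.04, against 0 over all genes. By edgeR 2 members were called lower (2.5%, against 1.25% of all genes) and 0 higher (against 1.03%), and at an unadjusted p under 0.05 there were 12 lower (15%, against 10.7% of all genes) and 5 higher (6.25%, against 7.63%). Groups did not overlap for 12 members in the lower direction (15.0%, against 11.9% of all genes) and for 7 in the higher direction (8.75%, against 8.29%). Without stimulated Gpx4-deficient replicate 3, which can only keep or raise these counts, the lower count was 21 (26.2%, against 18.3% of all genes). The higher count was then 10 (12.5%, against 14.2%). Marker sums of other cells that did not overlap between these groups were those of erythroid cells, at 8.53 to 22.9 CPM in WT and 33.1 to 54.2 CPM in Gpx4-deficient libraries, of monocytes and macrophages, at 25.8 to 63.2 and 65.2 to 89.9 CPM, and of CD8 and NK cells, at 45.5 to 52.9 and 17.0 to 39.9 CPM. B cell markers (13.9 to 24.0 and 5.03 to 60.8 CPM) and neutrophil markers (21.4 to 76.2 and 4.85 to 57.3 CPM) overlapped. Their part in the members' values was not tested.

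Ndufb5 (chr3:32736990-32751566 of GRCm38) was the most changed of the called members. It measured 49.8, 55.8 and 62.1 CPM in stimulated WT libraries and 24.7, 28.5 and 30.1 CPM in stimulated Gpx4-deficient ones, with no overlap (log2 fold change -1.01 ± 0.22, SE, n = 3 per group; edgeR adjusted p = 0.0351). The call was lost when any 1 stimulated WT library or Gpx4-deficient replicate 1 was left out, with an adjusted p of at most 0.159. Atp5b (chr10:128083273-128090391), the member with the highest level, measured 2091, 1765 and 1872 CPM against 1503, 1230 and 1184 CPM, also apart (-0.55 ± 0.12, SE; edgeR adjusted p = 0.0433). Its call was lost without any 1 library other than Gpx4-deficient replicate 1, with an adjusted p of at most 0.184. Neither call was made in a fit of these 2 groups alone (adjusted p = 0.211 for Ndufb5 and 0.165 for Atp5b).

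The 4 core and redox subunits of complex III had values below 0 in this comparison too, with a median of -0.56. Cyc1, the heme protein that hands electrons to cytochrome c, measured 216, 194 and 205 CPM in WT and 144, 145 and 112 CPM in Gpx4-deficient libraries, apart (-0.61 ± 0.16, SE; edgeR adjusted p = 0.0776). Uqcrc1 measured 684, 584 and 485 CPM against 409, 388 and 347 CPM, apart as well (-0.62 ± 0.16, SE; edgeR adjusted p = 0.0776). Complex II had values below 0 for 4 of 4 members, with Sdha at 459, 347 and 376 CPM against 234, 350 and 303 CPM, which overlapped (-0.41 ± 0.15, SE; edgeR adjusted p = 0.173). In contrast, 9 of 12 complex IV members and 5 of 5 small membrane subunits of complex V had values above 0. Cox6c, a small subunit of complex IV, measured 72.4, 90.1 and 87.3 CPM in WT and 119, 112 and 126 CPM in Gpx4-deficient libraries, without overlap (0.52 ± 0.17, SE; edgeR adjusted p = 0.141). No member passed the test in the higher direction.

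**Figure D4:**
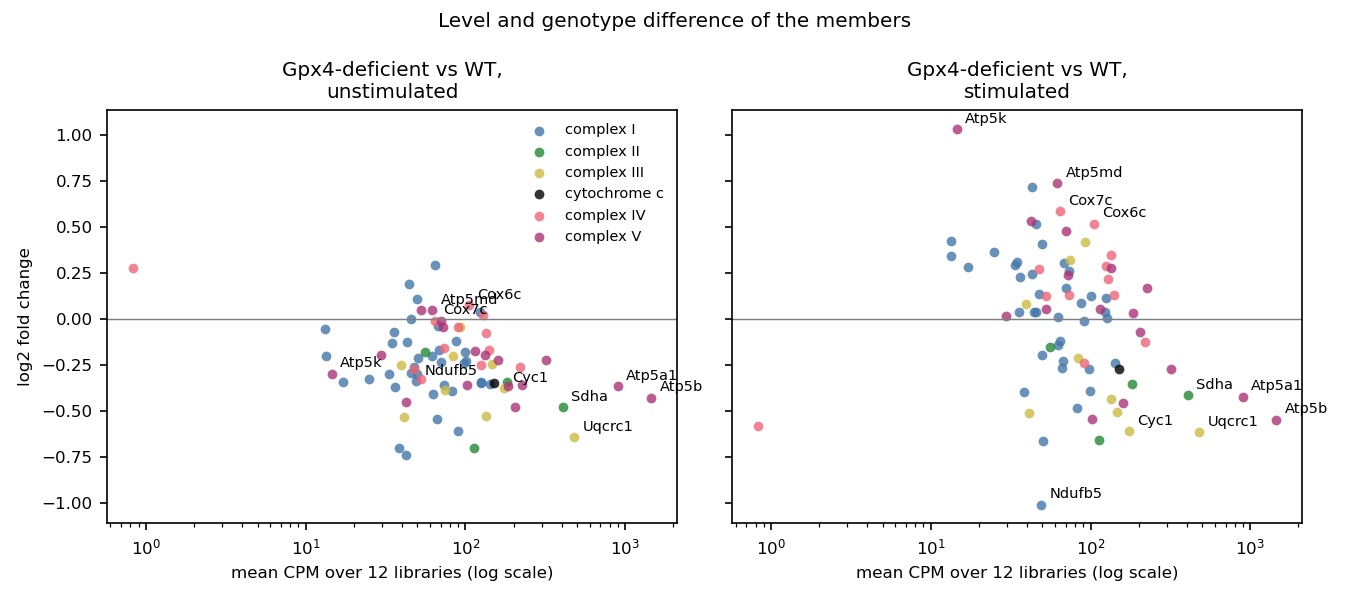
Log2 fold change between Gpx4-deficient and WT cells (vertical axis) against the mean level over 12 libraries (horizontal axis, CPM, log scale) for the 80 tested members, unstimulated on the left and stimulated on the right; colours mark complexes, and the named genes were picked after their values were seen. In stimulated cells the points ran from above 0 at low levels to below 0 at high levels, with Atp5b, Atp5a1, Uqcrc1 and Sdha at the lower right.

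Level and direction went together in stimulated cells. Split by mean CPM into sets of 20, the set with the lowest levels had a median log2 fold change of 0.26 with 17 of 20 above 0, and the next sets had medians of 0.09 and 0.04. The set with the highest levels had a median of -0.27 with 14 of 20 below 0. The Spearman correlation between level and fold change was -0.39 over the 80 members and -0.01 over all 14827 genes tested, as a description of genes that share libraries. The correlation of fold change with the length of the longest transcript was -0.30 over the members and 0.03 over 14542 genes with an annotated length. In unstimulated cells these sets had medians of -0.27, -0.19, -0.23 and -0.35, from lowest to highest level. CPM is not corrected for length, and level and length were not separated.

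The same can be read from summed levels. The 20 most abundant members summed to 6551 to 7279 CPM in stimulated WT libraries and 4727 to 5707 CPM in stimulated Gpx4-deficient ones, without overlap. Atp5b (means of 1909 and 1306 CPM) and Atp5a1 (1025 and 765 CPM) weighed most in that sum. All other members together summed to 3474 to 3614 CPM and 3278 to 4004 CPM, which overlapped. In unstimulated cells both sums were apart, at 6488 to 6878 against 4829 to 5666 CPM for the 20 most abundant members and 4085 to 4637 against 3386 to 3872 CPM for the others. Together the members took 1.07% to 1.17% of all counts in unstimulated WT libraries, 0.831% to 0.953% in unstimulated Gpx4-deficient ones, 1.02% to 1.03% in stimulated WT ones and 0.814% to 0.931% in stimulated Gpx4-deficient ones.

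The response to stimulation was not shown to differ between genotypes for any member. The interaction, which is the stimulation response in Gpx4-deficient cells less the response in WT, gave 0 called members by edgeR in either direction, where 0.027% of all genes were called higher and 0.175% lower. At an unadjusted p under 0.05 there were 4 members above 0 (Ndufa7, Ndufs3, Ndufa3 and Cox6b1; 5%, against 3.22% of all genes) and 1 below (Ndufb5; 1.25%, against 5.54%). DESeq2 called Ndufa7 and Cox6b1, where it called 3.47% of all genes. The interaction was above 0 for 61 of 80 members, with a median of 0.28 on the log2 scale, against -0.01 over all genes. Ndufa7, a small supernumerary subunit of complex I, showed the smallest p. It measured 48.3, 68.0 and 63.2 CPM in unstimulated WT libraries, 31.3, 34.0 and 42 in unstimulated Gpx4-deficient ones, 34.4, 35.3 and 33.9 in stimulated WT ones and 39.3, 32.6 and 50.6 in stimulated Gpx4-deficient ones. The 3 unstimulated WT libraries thus stood above the other groups except for 1 stimulated Gpx4-deficient library, and the interaction was 0.98 ± 0.36 (SE; edgeR adjusted p = 0.453). Cox6b1 came to 0.54 ± 0.20 (SE, edgeR adjusted p = 0.471). The smallest p of complex III was that of Uqcrh, at 0.71 ± 0.39 (SE, edgeR adjusted p = 0.652). In complex V it was that of Atp5pb, at 0.41 ± 0.19 (SE, edgeR adjusted p = 0.574). For Cycs the interaction was 0.08 ± 0.29 and for Sdha 0.07 ± 0.21 (SE), and each turned below 0 when a Gpx4-deficient library was left out (Cycs to -0.15 without stimulated replicate 1, Sdha to -0.06 without stimulated replicate 2).

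Isoform balance could be followed in 2 families with more than 1 expressed member. Cox7a2l made up 63.7% to 71.9% of the summed CPM of the Cox7a genes in unstimulated WT libraries and 55.2% to 60.3% in stimulated WT ones. In Gpx4-deficient libraries its share was 68.3% to 72.7% unstimulated and 47.4% to 53.6% stimulated, so the ranges were apart in both genotypes. The c ring of the ATP synthase is built from 1 mature protein encoded by Atp5g1, Atp5g2 and Atp5g3, of which Atp5g1 is known as the regulated copy. Atp5g1 made up 33.3% to 36.6% of their summed CPM in unstimulated WT libraries and 43.9% to 48.4% in stimulated WT ones. In Gpx4-deficient libraries the share was 31.8% to 42% unstimulated and 32.3% to 39.2% stimulated, which overlapped. Atp5g1 itself measured 186, 210 and 219 CPM in stimulated WT libraries and 174, 114 and 159 CPM in stimulated Gpx4-deficient ones, apart but not called (-0.46 ± 0.20, SE; edgeR adjusted p = 0.257). These shares are of CPM, not of levels per length, and were not tested.

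The nuclear subunits were set beside the 13 mitochondrially encoded subunits of the same complexes. No mitochondrial subunit was called between genotypes in unstimulated cells, where 0.054% of all genes were called higher and 0.0135% lower. At an unadjusted p under 0.05 by edgeR, 11 of 13 were higher there (84.6%, against 2.96% of all genes). Groups did not overlap for 11 of 13 in the higher direction (against 8.42% of all genes). In stimulated Gpx4-deficient cells 11 of 13 were called higher than in WT (against 1.03% of all genes). Summed CPM of the mitochondrial subunits was 1.02 to 1.14 times that of the nuclear ones in unstimulated WT libraries and 1.05 to 1.19 times in stimulated WT libraries. The ratio was 1.65 to 2.02 in unstimulated Gpx4-deficient libraries and 2.71 to 3.50 in stimulated Gpx4-deficient ones, so every Gpx4-deficient library lay above every WT library. By complex, the ratio in stimulated cells was 1.21 to 1.34 in WT and 3.05 to 4.00 in Gpx4-deficient libraries for complex I, 1.45 to 1.75 and 4.34 to 7.33 for complex III, 4.26 to 4.62 and 7.72 to 7.97 for complex IV, and 0.353 to 0.463 and 1.10 to 1.60 for complex V. Both terms contributed for complexes III and V, whose nuclear sums were 1318 to 1588 against 1000 to 1275 CPM and 4501 to 4942 against 3215 to 4214 CPM. The lower sum of complex V lay largely in Atp5b (means of 1909 and 1306 CPM) and Atp5a1 (1025 and 765 CPM). By gene, 11 of 17 complex V members had log2 fold changes above 0 between stimulated genotypes, with a median of 0.05. For complexes I and IV the nuclear sums overlapped, at 2152 to 2190 against 1915 to 2319 CPM and 1013 to 1102 against 1076 to 1369 CPM.

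**Figure D5:**
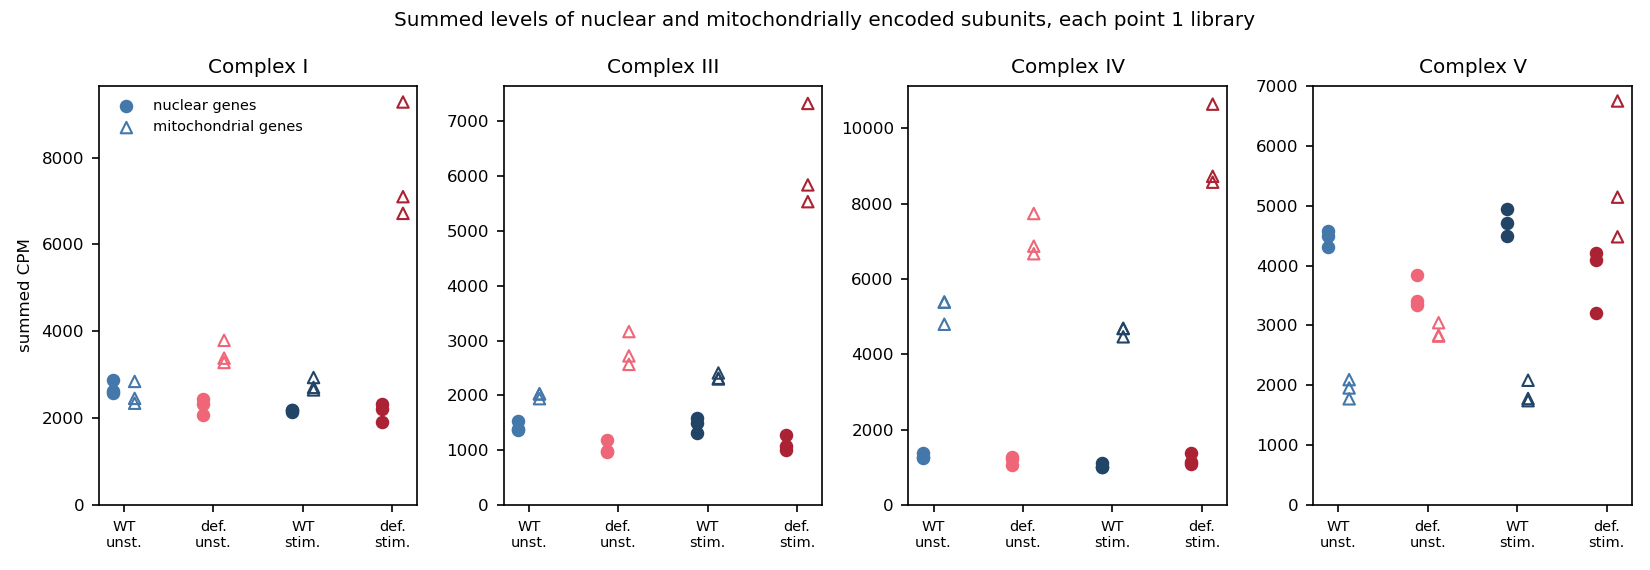
Summed CPM (vertical axis, from 0, with its own scale for each complex) of the nuclear (filled circles) and mitochondrially encoded (open triangles) subunits of complexes I, III, IV and V in each library, by group (abbreviated as in the plot of the called members). The mitochondrial sums stood highest in the 3 stimulated Gpx4-deficient libraries, while the nuclear sums of complexes III and V were lower there than in stimulated WT libraries. For complex V this lay largely in Atp5b and Atp5a1.

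Other genes of the pathway were taken from lists of assembly factors, regulators and citric acid cycle enzymes. Of 47 tested assembly factors, 0 were called between genotypes in unstimulated cells (0.054% of all genes were called higher and 0.0135% lower). In stimulated cells 1 was called lower (against 1.25% of all genes) and 0 higher (against 1.03%). It was Lyrm7, a chaperone of the Rieske protein of complex III. Lyrm7 measured 1.95, 3.44 and 3.07 CPM in stimulated WT libraries and 0 in all 3 stimulated Gpx4-deficient ones. With stimulation of WT cells 1 of the 47 was called higher and 1 lower (against 6.12% and 5.41% of all genes). In Gpx4-deficient cells 1 was called higher and 2 lower (against 7.45% and 7.83%). Ndufaf4, of complex I assembly, rose in WT cells (1.71 ± 0.39, SE; edgeR adjusted p = 0.0142) and Cox20, of complex IV assembly, fell (-1.28 ± 0.35, SE; edgeR adjusted p = 0.0357). In Gpx4-deficient cells Cox17, the copper chaperone of complex IV, rose (1.06 ± 0.25, SE; edgeR adjusted p = 0.013), and Lyrm7 and Nubpl fell. Nubpl measured 7.13, 2.69 and 6.04 CPM unstimulated and at most 0.0754 CPM stimulated.

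Of 11 tested regulators, the same 3 were called higher with stimulation in both genotypes and none was called lower. Of all genes, 6.12% were called higher and 5.41% lower in WT cells, and 7.45% and 7.83% in Gpx4-deficient cells. Myc, a broad growth regulator, rose by 2.31 on the log2 scale in WT cells (edgeR adjusted p = 1.22e-07) and by 2.32 in Gpx4-deficient cells (edgeR adjusted p = 1.41e-07). Pprc1, a coactivator related to PGC-1, rose by 2.02 and 1.05, and Gabpb1, a subunit of GABP, by 1.28 and 1.68. Nrf1 was not called, at 130 to 177 CPM in stimulated WT libraries and 117 to 139 CPM in stimulated Gpx4-deficient ones, and Ppargc1a was at 0 in all 12 libraries. Of 14 citric acid cycle enzymes outside complex II, 13 had values below 0 in the unstimulated genotype comparison and 13 in the stimulated one, with medians of -0.21 and -0.24, and none was called. Stimulation of Gpx4-deficient cells lowered Cs (-0.51; edgeR adjusted p = 0.025) and Idh2 (edgeR adjusted p = 0.0476). Idh2 measured 58.2, 63.2 and 85.7 CPM unstimulated and 0.0718, 11.1 and 0.113 CPM stimulated, so 1 stimulated library was far above the others. A further 3 tested genes were related to the complexes but were not members. Ndufab1, the acyl carrier protein of complex I, rose with stimulation of Gpx4-deficient cells (0.90 ± 0.27, SE, edgeR adjusted p = 0.0427). Ndufb1-ps, dropped for its -ps mark, and Atpif1, an inhibitor of the ATP synthase, were not called.

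The libraries of stimulated Gpx4-deficient cells were the most spread. The median SD of log2(CPM + 0.5) over the tested members was 0.135 in unstimulated WT, 0.207 in unstimulated Gpx4-deficient, 0.153 in stimulated WT and 0.317 in stimulated Gpx4-deficient libraries. Over all genes tested it was 0.293, 0.427, 0.345 and 0.609 in the same order. In the stimulated Gpx4-deficient group 20 members spanned 2-fold or more between libraries, against 0, 2 and 1 in the other groups. Replicate 3 of that group was the highest of its group for 44 members and replicate 2 the lowest for 45.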

How the data were processed

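The authors deposited 1 table of 12 libraries, named as RSEM gene output, whose values are expected counts; the submitters' processing notes name the build GRCm38, and aligner and versions were not given in the sources used here. Libraries were stranded poly(A) libraries from 600 ng of RNA, per the labels' protocols. Expected counts were rounded, since 14.8% to 18.1% of each library's values held decimals. Genes were filtered with filterByExpr, scaled by TMM and tested by the robust quasi-likelihood method of edgeR 4.0.16 (R 4.3.3) in 1 model of the 4 groups (residual degrees of freedom, 8). Adjusted p-values (Benjamini-Hochberg) cover 14827 genes, with a threshold of 0.05. Scripts were tested on simulated data.

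Alternatives were relative log expression scaling, no filter, DESeq2 1.42.0, limma-voom (limma 3.58.1), a fit of 2 groups only, a replicate block and leaving out each library. Counts of non-overlapping members without single libraries were added after the data were seen. Gene positions and lengths came from GENCODE for GRCm38, and promoter sequences from RefSeq (GRCm38.p6). Named members are those called, the smallest p of each complex and comparison, the highest 2 and the lowest per kb of each complex, complex II, Cyc1, Cycs and the isoform sets. Ndufa12, Atp5k, Cox7c, Ndufs3 and Ndufa3 were named after their values were seen. Members and lists were chosen with earlier results of these data known. The result of 1 citric acid cycle gene is not reported here.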

Additional observations from a re-analysis of the deposited data

How the results depend on the processing

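For stimulation of WT cells without a filter the members' median log2 fold change was -0.305, just below its range over the leave-one-out fits. Under all other alternatives and comparisons the median, as rounded here, stayed within that range. Over the leave-one-out fits it lay between -0.28 and -0.15 for genotype in unstimulated cells, -0.01 and 0.13 for genotype in stimulated cells, -0.29 and -0.21 for stimulation of WT cells, -0.10 and 0.14 for stimulation of Gpx4-deficient cells, and 0.21 and 0.37 for the interaction. The number of called members moved more. For genotype in unstimulated cells (0 called) DESeq2 called 3 (1.4% of all genes), and for the interaction (0 called) it called 2 (3.47% of all genes). For genotype in stimulated cells (2 called) the count was 1 without a filter (1.19% of all genes), 10 with DESeq2 (12.7% of all genes), 0 in the fit of 2 groups (0.176%) and 0 to 3 with a library left out. For stimulation of WT cells (5 called) it was 17 with DESeq2 (20.2% of all genes), 21 in the fit of 2 groups (26.3% of all genes) and 2 to 4 with a library left out, and the 5 were among the 17 and the 21. For stimulation of Gpx4-deficient cells (6 called) it was 1 in the fit of 2 groups (Cox7a2l; 8.02% of all genes) and 3 to 10 with a library left out, 10 without stimulated replicate 3 (14.4% of all genes). Cycs was called in every leave-one-out fit of both genotypes, and Cox7a2l and Uqcrq in every one of Gpx4-deficient cells. With the fit of 2 groups in Gpx4-deficient cells Cycs had an adjusted p of 0.0571 and Uqcrq of 0.113. The interaction of Cycs ran from -0.15 to 0.26 over the leave-one-out fits and was -0.0085 without unstimulated Gpx4-deficient replicate 1. That of Sdha ran from -0.062 to 0.24. The smaller fits hold fewer samples, and the cause of these changes was not tested.

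Libraries with the same replicate number did not deviate together (correlations of -0.02 to 0.03), so the numbers were not taken to pair samples. With the replicate block, 0 members were called for genotype in either state, 4 for stimulation of WT cells, 4 for stimulation of Gpx4-deficient cells and 0 for the interaction. At this depth all 80 tested members but Cox6b2 had mean levels above 10 CPM, and the fold changes of Cox6b2 had standard errors of 2.02 to 2.07 on the log2 scale in the 4 comparisons of groups.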
